A study of Mus musculus with 26 samples.

Results

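The genes described here are 85 mouse protein-coding genes of the cilium and of its microtubule core, the axoneme, out of 48709 gene identifiers in the expression tables. They were chosen by a rule on names that uses no measured value, although earlier results of these data were known by then. The rule takes symbols beginning with Ift, Tekt, Cfap, Dnah, Dnai or Rfx, the numbered Bbs genes, and Foxj1, Ccdc39, Ccdc40 and Kif19a. By role they comprise 9 transcriptional regulators, 3 subunits of the IFT-A complex, 11 of the IFT-B complex, 8 BBS proteins, 5 tektins, 15 axonemal dynein heavy chains, 31 CFAP genes and 3 genes that set axonemal spacing or cilium length. No gene carried a Dnai symbol in the annotation used, and the intermediate chain genes Dnaic1 and Dnaic2, which carry older symbols, are given beside the members.

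Cochleae of postnatal day 1 mice were cultured as whole organs and given DAPT, a gamma-secretase inhibitor that blocks Notch signalling, or the vehicle DMSO, and supporting cells were then sorted. After 24 h, Lfng-GFP+ cells were sorted from DAPT-treated organs (DAPT, 3 libraries) and from DMSO-treated organs (DMSO, 3 libraries) for RNA sequencing. After 48 h, 3 groups were sorted: permissive cells (DAPT, Lfng-CreER/TdT+ and Atoh1-GFP+, 3 libraries), nonpermissive cells (DAPT, Lfng-CreER/TdT+ only, 3 libraries) and control cells (DMSO, Lfng-CreER/TdT+ only, 2 libraries). Each 48 h group also had 2 ATAC libraries of open chromatin and 2 CUT&RUN libraries of the histone mark H3K27ac. All groups shared the same culture medium, with EGF and FGF added. Permissive cells were picked by a reporter of Atoh1, the transcription factor that starts hair cell formation, so that their groups differ in the sort as well as in treatment. The sample labels also spell the Cre driver Lfng-CreET/TdT. The TdT label marks cells in which Lfng-driven Cre was active and their descendants, and the labels give neither strain nor the animals behind a library, so that p-values measure the spread between libraries only.

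RNA depth was 10666050 to 13158897 expected counts per library at 24 h and 2165338 to 4896374 at 48 h, where another library kit was used, so that time and kit cannot be told apart. Libraries of 1 group correlated at Spearman 0.959 to 0.966 over genes at 24 h and at 0.904 to 0.919 at 48 h. Hes5, a Notch target, read 3.70 to 9.54 CPM (counts scaled to the library size after TMM normalization) in DAPT and 1550 to 1850 CPM in DMSO libraries, and 1.62 to 21.1 CPM in permissive, 0 to 2.23 CPM in nonpermissive and 298 to 813 CPM in control libraries. Atoh1, on whose reporter the permissive sort rests, read 635 to 1010, 30.2 to 67.2 and 2.28 to 3.55 CPM in the permissive, nonpermissive and control ones. The sum of 15 hair cell markers was 6730 to 10900 CPM in DAPT libraries and 2230 to 2710 CPM in DMSO libraries. It was 7920 to 10200 CPM in permissive, 371 to 465 CPM in nonpermissive and 190 to 348 CPM in control libraries. The sum of 15 supporting cell markers was 8420 to 10500 CPM in DAPT and 16900 to 18600 CPM in DMSO libraries, and 1160 to 1310, 7630 to 13100 and 10800 to 15900 CPM in permissive, nonpermissive and control libraries. Sox2, a defining supporting cell gene, was read in every library, at 43.7 to 52.4 CPM in permissive cells at the lowest. In such sorted bulk samples, fewer cells of a type and less RNA per cell cannot be told apart.

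A cilium grows from a basal body, and its parts are carried along the axoneme by intraflagellar transport (IFT) trains, of which IFT-B goes outward with kinesin and IFT-A returns with dynein, while the BBSome carries membrane cargo. Motile cilia add dynein arms, tektin filaments, spacing rulers and central structures to the axoneme. Their genes are switched on by FOXJ1 and by RFX factors, which bind a DNA motif called the X-box. Supporting cells of the cochlea carry a primary cilium, and each nascent hair cell carries a kinocilium, a single cilium at the tall edge of the hair bundle that is lost from mammalian cochlear hair cells as they mature.

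The promoters of the members were searched for the X-box. In RefSeq promoter windows of build GRCm38.p6, from 250 bases before to 50 bases after a start, 72 of the 85 members were found, and 17491 protein-coding genes in all. The motif, GTNNCC and GGNNAC with any 2 bases between them, was searched on both strands and lay in the windows of 11 of the 72 members (15.3%), against 2.26% of all protein-coding genes. A shorter motif, GTTGCC, searched likewise, which can lie within the whole motif, was in 29 of the 72 (40.3%), against 14.4% of all genes. The forkhead motif TGTTTAC was in 5 of the 72 (6.94%), against 3.45% of all genes. Among members called in no comparison, 17 of 43 (39.5%) held the shorter motif, 4 of 43 (9.30%) the whole X-box and 5 of 43 (11.6%) the forkhead motif. These 43 include members with too few counts to test. The whole X-box was in 3 of 14 members called higher in permissive cells (21.4%) and 4 of 17 called higher at 24 h (23.5%). The shorter motif was in 5 of 14 (35.7%) and 9 of 17 (52.9%) of them, and the forkhead motif in 0 of 14 and 0 of 17. The shares were not compared by a test.

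The promoters of Tekt2, Bbs1 and Ift88 are shown because these genes rose with DAPT at 24 h as well as in permissive cells at 48 h and hold a match. Each is given from 150 bases before the start and ends 30 bases into the transcript, and capitals mark the motif matches. They lie at chr4:126325617-126325796 on the minus strand, chr19:4906598-4906777 on the minus strand and chr14:57423921-57424100 on the plus strand.
Tekt2: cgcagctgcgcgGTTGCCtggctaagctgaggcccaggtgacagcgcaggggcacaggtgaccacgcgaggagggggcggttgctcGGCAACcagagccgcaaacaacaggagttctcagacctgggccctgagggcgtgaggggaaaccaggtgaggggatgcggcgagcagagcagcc
Bbs1: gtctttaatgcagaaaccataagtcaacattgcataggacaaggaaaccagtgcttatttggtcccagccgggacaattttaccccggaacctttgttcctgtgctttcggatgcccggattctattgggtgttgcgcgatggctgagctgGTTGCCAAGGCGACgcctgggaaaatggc
Ift88: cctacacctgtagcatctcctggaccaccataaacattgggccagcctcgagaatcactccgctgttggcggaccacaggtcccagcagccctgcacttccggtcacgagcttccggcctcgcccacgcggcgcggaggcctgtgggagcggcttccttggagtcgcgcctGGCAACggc

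Tekt2 held the shorter motif at 2 places on opposite strands, upstream of the start. Bbs1 held the whole X-box and Ift88 the shorter motif alone, each downstream of the start. The whole X-boxes of the other members that passed a test are set beside that of Bbs1 because they show how the letters between the fixed positions differ. They were picked after the RNA values were seen, and capitals mark the fixed letters.
Bbs1: GTtgCCaaGGcgAC
Cfap206: GTttCCacGGttAC
Cfap77: GTcaCCaaGGagAC
Bbs4: GTcgCCcgGGaaAC
Cfap298: GTtgCCcgGGcaAC
Ift22, upstream site: GTttCCtgGGctAC
Ift22, downstream site: GTcgCCgtGGaaAC
Ift57: GTtgCCgtGGtgAC
The sites lie, in the order printed, at chr19:4906613-4906626, chr4:34730216-34730229, chr2:29055289-29055302, chr9:59353472-59353485, chr16:90935024-90935037, chr5:136908087-136908100, chr5:136908117-136908130 and chr16:49699207-49699220 of GRCm38.p6. The fixed letters read the same on both strands.

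Bbs1, Cfap206 and Cfap77 were higher in permissive than in control cells, Bbs4, Cfap298 and Ift22 were higher with DAPT at 24 h, and Ift57 was lower with DAPT at 24 h. A whole X-box thus stood in the promoters of members that moved in either direction. The 4 other members with one, Bbs7, Cfap126, Rfx2 and Tekt4, passed no main test.

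At 24 h of DAPT, more ciliary genes were higher than lower, mostly by small amounts. Of the 65 members with enough counts to test, 21 were higher with DAPT (32.3%) and 4 were lower (6.15%), against 11.5% and 14.2% of the 15174 genes tested (edgeR quasi-likelihood test, Benjamini-Hochberg adjusted p under 0.05 over all genes). The median log2 fold change was 0.41 over the members and 0.01 over all genes, and 80% of the members lay above 0, against 51.0% of all genes. In 25 members every DAPT library lay above every DMSO library, and in 5 every DAPT library lay below (20.7% and 21.7% of all genes). The genes that rose included the motile cilium regulator Foxj1, all 3 spacing and length genes, 2 of 3 testable tektins and 6 of 11 IFT-B subunits. DAPT replicate 3 was the lowest of the 3 for 48 of the 65 members (73.8%, against 36.2% of all genes), and it also had the lowest hair cell marker sum. Without it 33 members were higher, and without the first DAPT library 12 were higher and 2 lower. The part of the hair cell marker level in these results was not tested.

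At 48 h, ciliary genes that passed a test were all higher in permissive cells than in the group they were set against. Against control cells, 15 of 60 testable members were higher (25.0%) and none was lower, with 5.72% of 13411 genes called higher and 7.28% lower. Against nonpermissive cells, 16 of 60 were higher (26.7%) and none was lower, with 6.78% and 6.35% of all genes. The median log2 fold change over members was 1.92 against control cells and 1.25 against nonpermissive cells, when that of all genes was 0.06 and 0.00. Those 2 comparisons share the permissive libraries and are not independent. Of the 60, 15 had no control library with 10 counts or more, so they entered through the other groups and could hardly be called lower, and likewise 12 had no nonpermissive library with that many. By DESeq2, 25 members were higher in permissive than in control cells, and with 1 control library left out the count was 7 or 10 (without the first or the second).

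Between nonpermissive and control cells no member was called in either direction by edgeR, where 0.0671% of all genes were called higher and 0.127% lower, and none by DESeq2. At an unadjusted p under 0.05 edgeR gave 7 of the 60 members, and 7.35% of all genes. The median log2 fold change over members was 0.27, with 0.00 over all genes. In 4 members every nonpermissive library lay above both control libraries, and in 1 every one lay below (10.1% and 10.4% of all genes).

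**Figure D1:**
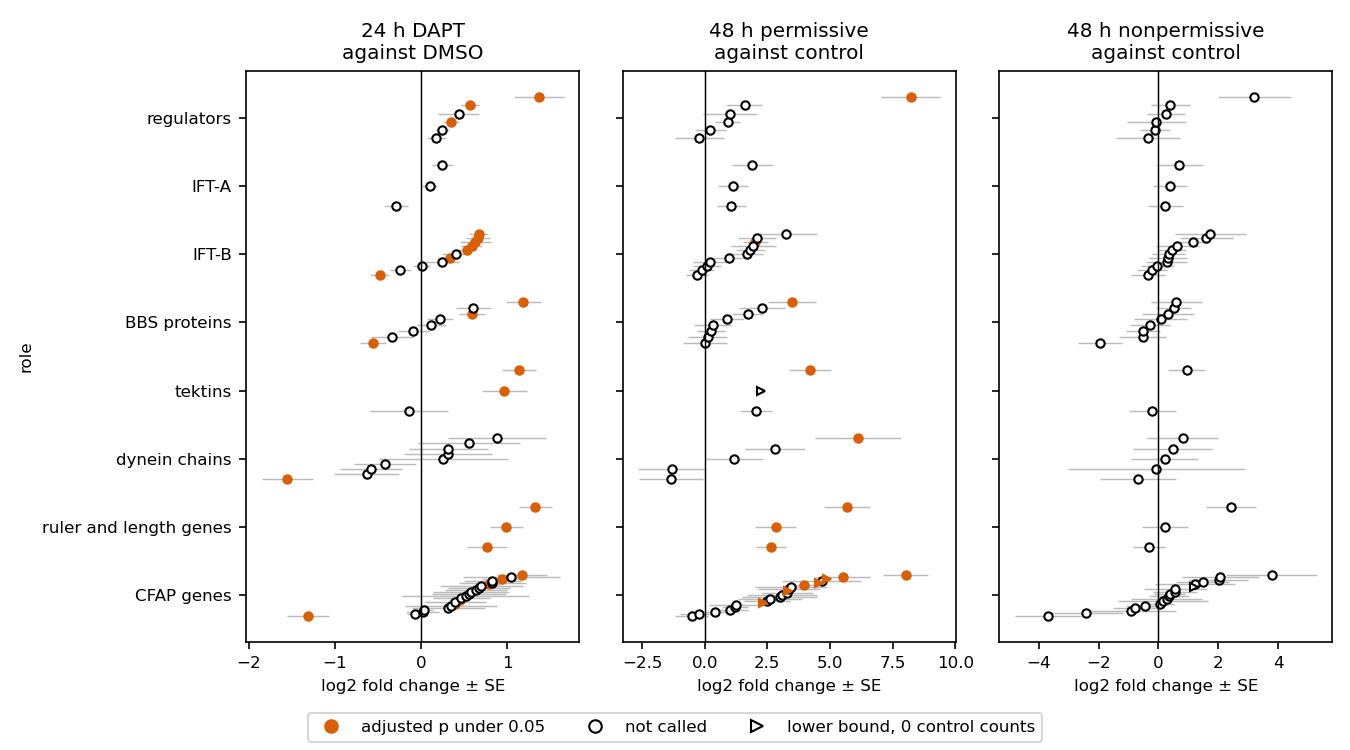
Log2 fold change with its standard error (x axis) of every testable member, grouped by role (y axis), for DAPT against DMSO at 24 h, permissive against control and nonpermissive against control cells at 48 h. Orange symbols passed an adjusted p of 0.05, triangles are lower bounds where both control libraries had 0 counts, and such members without a bound are left out; orange symbols stand on both sides of 0 at 24 h, only on the right in permissive cells and nowhere in nonpermissive cells.

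Among the regulators, Foxj1, the forkhead factor that switches on motile cilium genes, differed most. Foxj1 read 17.9, 27.5 and 12.7 CPM in DAPT libraries, against 7.92, 5.97 and 8.73 CPM in DMSO libraries. All DAPT libraries lay above all DMSO libraries, at a log2 fold change of 1.37 ± 0.29 (SE; adjusted p = 0.00823). At 48 h, Foxj1 read 36.1, 39.5 and 53.8 CPM in permissive libraries, 1.95, 0 and 1.60 CPM in nonpermissive libraries, and 0.187 and 0 CPM in control libraries. The control value rests on 1 count, which puts the ratio of summed counts over summed library sizes at 366 with a 95% counting interval of 65.3 to 14500, for counting error only; ratios with such an interval are meant so throughout (adjusted p = 0.000558). Against nonpermissive cells the log2 fold change of Foxj1 was 5.00 ± 0.80 (adjusted p = 0.00107). Nonpermissive and control libraries overlapped for Foxj1, with 12 counts in all against 1 (adjusted p = 0.539).

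Of the RFX genes, Rfx3 and Rfx5 passed at 24 h and none passed at 48 h, except Rfx3 with the replicate number as a block. Rfx3, which in mice acts with Rfx1 to keep outer hair cells alive, read 71.1, 69.2 and 82.3 CPM in DAPT libraries, against 54.3, 43.5 and 51.9 CPM in DMSO libraries. The groups did not overlap, and Rfx3 rose by 0.57 ± 0.11 on the log2 scale (adjusted p = 0.00647). Rfx3 read 87.3, 45.2 and 43.3 CPM in permissive, 44.4, 21.1 and 11.2 CPM in nonpermissive, and 28.8 and 9.99 CPM in control libraries, and its difference of permissive from control cells of 1.59 ± 0.69 (log2) did not pass (adjusted p = 0.158, and 0.0196 with the block). Rfx5, best known as an activator of MHC class II genes, rose at 24 h by 0.35 ± 0.09 on the log2 scale (adjusted p = 0.0183), a call lost without the first DMSO library (adjusted p = 0.0523) or the first DAPT library (adjusted p = 0.0852).

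Rfx1, Rfx2 and Rfx7 passed no test. For Rfx1 the log2 difference was 0.18 ± 0.11 for DAPT against DMSO (adjusted p = 0.255) and 0.92 ± 0.50 for permissive against control cells (adjusted p = 0.279). Rfx2 differed by 0.44 ± 0.24 (adjusted p = 0.223) and 1.01 ± 1.07 (adjusted p = 0.621) in the same comparisons, and Rfx7 by 0.25 ± 0.08 (adjusted p = 0.0589) and 0.23 ± 0.63 (adjusted p = 0.871). Against control cells, nonpermissive cells differed in log2 by 0.40 for Rfx3, 0.25 for Rfx7, -0.11 for Rfx1 and -0.35 for Rfx2, each within 1 standard error of 0. Per length, Rfx5 (32.8 TPM, the deposited level per transcript length) and Rfx7 (24.1 TPM) were the most abundant regulators in DAPT cells, above Foxj1 at 14.7 TPM, and in permissive cells Foxj1 (27.7 TPM) and Rfx1 (25.7 TPM) came first. Rfx4, Rfx6 and Rfx8 never passed the filter on low counts, and Rfx6 had no count in any library.

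**Figure D2:**
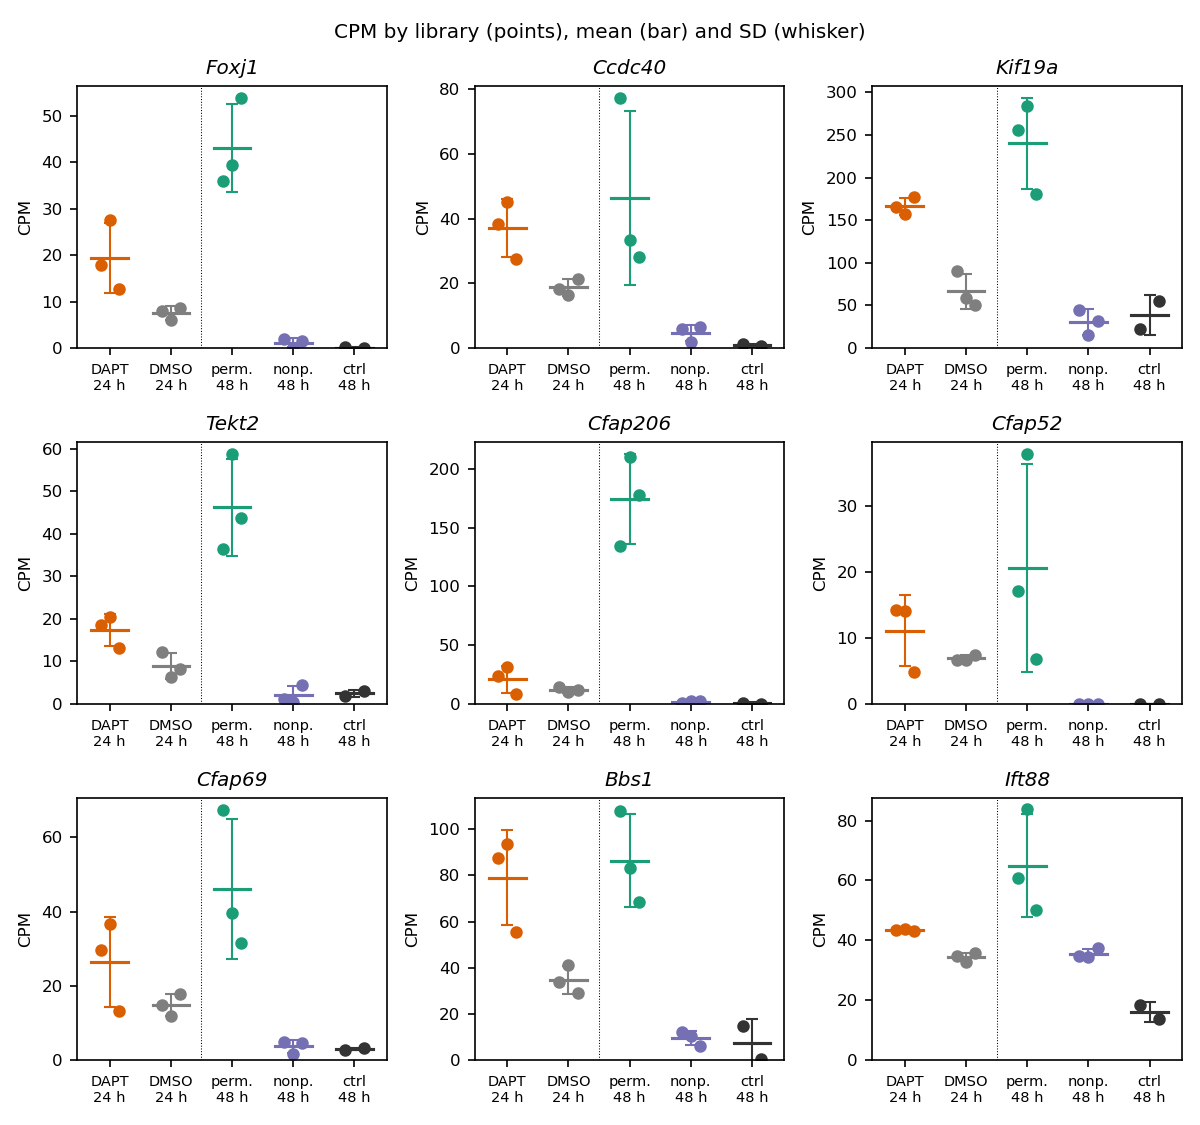
CPM (y axis, linear) of 9 members in each library, by group (x axis), with the mean as a bar and the SD as a whisker; the dotted line parts the 24 h from the 48 h libraries, which were prepared with different kits. Permissive libraries lie above all nonpermissive and control libraries in each panel, and DAPT libraries lie above all DMSO libraries for Foxj1, Ccdc40, Kif19a, Tekt2, Bbs1 and Ift88.

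The 3 genes of axonemal spacing and cilium length rose together in each comparison that involved Atoh1-GFP+ cells and also at 24 h. Kif19a codes for a kinesin that shortens microtubules at the ciliary tip and so limits cilium length. Per length it was the most abundant member in DAPT cells after Ift20 and Cfap36, at 124 TPM. In permissive cells its mean was the highest of all members, at 201 ± 107 TPM (SD, n = 3). Kif19a read 165, 157 and 177 CPM in DAPT libraries, against 90, 59.0 and 50.4 CPM in DMSO libraries, a log2 fold change of 1.33 ± 0.19 (adjusted p = 0.00118). It read 256, 284 and 181 CPM in permissive libraries, 45.0, 14.8 and 31.4 CPM in nonpermissive libraries, and 21.9 and 55.1 CPM in control libraries. Permissive libraries lay above all others, by 2.65 ± 0.59 against control (adjusted p = 0.00881) and 2.97 ± 0.51 against nonpermissive cells (log2; adjusted p = 0.0018), while nonpermissive and control libraries overlapped. Without the first control library the call against control was lost (adjusted p = 0.0972).

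CCDC40 and its partner CCDC39 form the ruler that sets where dynein arms and spokes attach along the axoneme. Ccdc40 read 38.5, 45.3 and 27.4 CPM in DAPT libraries, against 18.2, 16.5 and 21.5 CPM in DMSO libraries. All DAPT libraries were higher, by 0.99 ± 0.19 on the log2 scale (adjusted p = 0.00564). Ccdc40 read 77.2, 33.5 and 28.3 CPM in permissive, 5.86, 1.71 and 6.40 CPM in nonpermissive, and 1.12 and 0.571 CPM in control libraries. Here the 3 groups did not overlap at all: permissive cells were higher than control by 5.68 ± 0.91 (adjusted p = 0.00113) and than nonpermissive by 3.27 ± 0.66 (log2; adjusted p = 0.00512), and nonpermissive differed from control by 2.41 ± 0.84, which did not pass (adjusted p = 0.473). Ccdc39 was also higher, averaging 24.1 ± 7.81 CPM in DAPT libraries and 14.2 ± 1.04 CPM in DMSO libraries (SD, n = 3 each; adjusted p = 0.0413), a call lost when any library but the third DAPT one was left out (adjusted p = 0.0933 to 0.141). The replicate block ended that call too (adjusted p = 0.0602). In permissive cells Ccdc39 was higher than in control cells by 2.83 ± 0.83 on the log2 scale (adjusted p = 0.0374), a call lost without the first permissive library (adjusted p = 0.16) or either control library (0.147 and 0.204). It was higher than in nonpermissive cells by 2.61 ± 0.71 (log2; adjusted p = 0.0264), lost without the first or the third nonpermissive library (adjusted p = 0.0792 and 0.0982) or the first permissive one (0.165), and it differed by 0.22 ± 0.78 between nonpermissive and control cells.

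Of the IFT-B subunits, the cargo trains' outward complex, 6 of 11 rose and 1 fell at 24 h, all by less than 1 log2 unit. Ift80 rose by 0.67 ± 0.11 (adjusted p = 0.0028), Ift22, a small GTPase, by 0.66 ± 0.14 (adjusted p = 0.00825), Ift27, another small GTPase, by 0.63 ± 0.18 (adjusted p = 0.0343), Ift81 by 0.59 ± 0.12 (adjusted p = 0.00592) and Ift74 by 0.53 ± 0.11 (adjusted p = 0.00756). IFT74 and IFT81 together bind tubulin. Ift80 read 57.9, 62.8 and 49.9 CPM in DAPT libraries, against 35.3, 33.4 and 38.7 CPM in DMSO libraries, with no overlap. Ift57 fell by 0.48 ± 0.11, at 19.5, 20.7 and 21.5 CPM in DAPT libraries and 27.1, 28.9 and 30 CPM in DMSO libraries (adjusted p = 0.0119). The call of Ift27 held only without the third DAPT library among the leave-outs (adjusted p = 0.0568 to 0.151 in the others), and that of Ift57 was lost without the first DAPT library (adjusted p = 0.0644). Ift27 also missed the threshold at 24 h with the replicate number as a block (adjusted p = 0.0789). Ift20, which links the trains to the Golgi, and Ift46 had the highest mean level per length over both 24 h groups. They stood at 163 and 68.7 TPM in DAPT cells and 124 and 76.0 TPM in DMSO cells. Neither passed a main test. With the replicate number as a block, Ift20 passed as higher at 24 h (adjusted p = 0.0428, against 0.0919 without it).

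Ift88, a core subunit without which cilia do not form, was the IFT gene that passed at 48 h without a replicate block. Ift88 read 43.6, 43.8 and 43.0 CPM in DAPT libraries, against 34.8, 32.8 and 35.6 CPM in DMSO libraries, a small but even difference of 0.34 ± 0.09 (log2; adjusted p = 0.0239). It read 60.9, 84.0 and 50.1 CPM in permissive, 34.9, 34.3 and 37.4 CPM in nonpermissive, and 18.3 and 13.7 CPM in control libraries. The 3 groups were in separate ranges, with permissive cells 2.02 ± 0.51 above control (log2; adjusted p = 0.017) and nonpermissive cells 1.15 ± 0.49 above control, which did not pass (adjusted p = 0.628). At 24 h the call was lost without the first or second DMSO library (adjusted p = 0.0516 and 0.0942) or the first or second DAPT library (adjusted p = 0.0964 and 0.0716). The replicate block ended it too (adjusted p = 0.066), as did testing with no filter on low counts (adjusted p = 0.0533). Without either control library the permissive call was lost (adjusted p = 0.0751 without the first and 0.17 without the second). With the replicate number as a block, Ift27 and Ift80 also passed in permissive against control cells (adjusted p = 0.0338 and 0.0478, against 0.106 and 0.113 without it) and Ift22 against nonpermissive cells (adjusted p = 0.0449, against 0.0718).

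No IFT-A subunit passed a test. Per length Ift43 led them at 64.8 TPM in DAPT and 80.4 TPM in DMSO cells, followed by Ift122 at 31.2 and 25.2 TPM. The summed CPM of the 3 IFT-A genes was 127 to 150 in DAPT and 129 to 133 in DMSO libraries, and 75.7 to 176 in permissive, 49.4 to 73.9 in nonpermissive and 33.7 to 53.4 in control libraries.

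Bbs1, a subunit of the BBSome, was the BBS gene called higher at 24 h and in permissive cells against both other groups. Bbs1 read 87.7, 93.8 and 55.6 CPM in DAPT libraries, against 34.0, 41.0 and 29.1 CPM in DMSO libraries. The groups did not overlap, and the log2 fold change was 1.19 ± 0.20 (adjusted p = 0.00301). At 48 h Bbs1 read 108, 83.0 and 68.3 CPM in permissive, 12.3, 10.3 and 6.08 CPM in nonpermissive, and 14.8 and 0.285 CPM in control libraries. Permissive libraries lay above all others, by 3.48 ± 0.96 against control (adjusted p = 0.0274) and 3.17 ± 0.81 against nonpermissive cells (log2; adjusted p = 0.0182), and the control libraries differed widely between themselves. The call against control was lost without the second control library (adjusted p = 0.0674), and that against nonpermissive cells without the second or the third nonpermissive library (adjusted p = 0.0698 and 0.0725).

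Bbs4, another BBSome subunit, rose at 24 h by 0.59 ± 0.15 (log2; adjusted p = 0.02), and Bbs12, a chaperonin-like protein that helps to assemble the BBSome, fell by 0.56 ± 0.15, to a mean of 7.70 ± 0.312 CPM with DAPT, against 11.3 ± 0.430 CPM with DMSO (SD, n = 3 each; adjusted p = 0.0256). Leave-outs ended the Bbs4 call in 4 of 6 cases (all but the second DMSO and the third DAPT library; adjusted p = 0.0646 to 0.0769) and the Bbs12 call in 5 of 6 (all but the third DAPT library; adjusted p = 0.0561 to 0.103). The Bbs12 call was also lost with the replicate block (adjusted p = 0.0671) and with no filter on low counts (adjusted p = 0.0554). Bbs5, the most abundant BBS gene per length at 36.6 TPM in DAPT and 24.1 TPM in DMSO cells, passed in permissive against nonpermissive cells, at 34.5, 27.8 and 28.3 CPM against 7.82, 8.56 and 2.56 CPM (log2 fold change 2.27 ± 0.70; adjusted p = 0.0475). The 2 control libraries held 7.11 and 41.4 CPM of Bbs5, on either side of the permissive ones. Leaving out any 1 permissive or nonpermissive library ended that call, with adjusted p of 0.0682 to 0.153.

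Tektins are filament proteins of the axonemal doublets, and Tekt2 was the tektin that passed in each comparison with permissive cells. Tekt2 read 18.5, 20.4 and 13.2 CPM in DAPT libraries, against 12.2, 6.38 and 8.11 CPM in DMSO libraries, higher in all with a log2 fold change of 0.97 ± 0.26 (adjusted p = 0.0243). It read 36.3, 58.6 and 43.7 CPM in permissive libraries, 1.12, 0.571 and 4.48 CPM in nonpermissive libraries, and 1.87 and 3.14 CPM in control libraries. The permissive libraries were far above the others, at 4.20 ± 0.85 over control (adjusted p = 0.0048) and 4.40 ± 0.73 over nonpermissive cells (log2; adjusted p = 0.00139), and nonpermissive and control libraries overlapped. At 24 h the call was lost without the second or the third DMSO library (adjusted p = 0.0804 and 0.0815) or the first or second DAPT library (adjusted p = 0.0878 and 0.0846), and that against control without the first control library (adjusted p = 0.0533). The promoter of Tekt2 printed earlier is the one with 2 matches of the shorter motif.

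Tekt1, the most abundant tektin per length, read 57.8, 56.3 and 63.9 CPM in DAPT libraries, against 29.4, 33.6 and 17.7 CPM in DMSO libraries, and rose by 1.14 ± 0.20 on the log2 scale (adjusted p = 0.00385). At 48 h Tekt1 did not pass against control (adjusted p = 0.0524, and 0.0101 with the replicate block), with 44.4 to 92.7 CPM in permissive, 22.9 to 49.1 CPM in nonpermissive and 8.04 to 27.4 CPM in control libraries. Tekt3 and Tekt4 had no count in any nonpermissive or control library, and up to 5.69 and 8.37 CPM in a permissive one. Tekt3 passed no test and Tekt4 never passed the filter.

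Dynein heavy chains, the motors of the axoneme, were scarce at 24 h, when none averaged over 1.2 TPM in either group. In permissive cells Dnah14 averaged 15.7, Dnah7a 6.2, Dnah11 4.75 and Dnah7b 4.13 TPM, and each other heavy chain at most 0.507 TPM. The 15 genes together summed to 9.74 to 21.7 CPM in DAPT and 17.2 to 19.6 CPM in DMSO libraries, and to 26.7 to 59.2 CPM in permissive, 3.43 to 19.5 CPM in nonpermissive and 8.60 to 11.4 CPM in control libraries. Dnah1, an inner arm chain, fell at 24 h, at 2.27, 1.66 and 1.22 CPM in DAPT libraries and 6.03, 4.39 and 4.72 CPM in DMSO libraries, with no overlap (log2 fold change -1.55 ± 0.30; adjusted p = 0.00571). Dnah1 is the member that fell furthest at 24 h. Dnah11, an outer arm chain, read 24.6, 1.34 and 6.47 CPM in permissive libraries, 0.279, 0 and 0 CPM in nonpermissive and 0 and 0.285 CPM in control libraries. The permissive values differed widely among themselves but lay above all others; the ratio of summed counts over summed library sizes to control was 119 with a 95% counting interval of 21.1 to 4750 (adjusted p = 0.0295), and without either control library the call was lost (adjusted p = 0.176 and 0.0773), as it was with the replicate number as a block (adjusted p = 0.0551). Against nonpermissive cells the ratio was 114 with an interval of 20.1 to 4540 (adjusted p = 0.0146), lost without the second or the third nonpermissive library (adjusted p = 0.0562 and 0.0573).

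Dnah5, the outer arm chain most often affected in human primary ciliary dyskinesia, did not exceed 1.32 CPM in any library and never passed the filter. Dnah14 had the highest level per length of the heavy chains in permissive cells, at 15.7 TPM, with 3.0 TPM in nonpermissive and 2.31 TPM in control cells, and did not pass. Dnah7a, Dnah7b and Dnah7c are near-identical copies among which reads can be split, so their separate values are uncertain, and none was called. The intermediate chain gene Dnaic2, outside the members, read 71.6, 91.4 and 34.9 CPM in DAPT libraries, against 29.4, 29.6 and 30.1 CPM in DMSO libraries (adjusted p = 0.0191). It read 106, 107 and 96.6 CPM in permissive libraries, 1.40, 0 and 0.640 CPM in nonpermissive libraries and 0.561 and 0.285 CPM in control libraries, a log2 fold change of 7.75 ± 0.85 over control (adjusted p = 0.000106). Dnaic1 stayed at or below 8.09 CPM and was not called.

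The CFAP genes code for many unrelated axonemal proteins and fell into widely expressed and nearly silent ones. Cfap206, a radial spoke protein in ciliates, was nearly silent outside permissive cells at 48 h. Cfap206 read 134, 210 and 178 CPM in permissive libraries, 0.838, 2.28 and 2.56 CPM in nonpermissive, and 1.12 and 0 CPM in control libraries. Permissive cells were higher by 8.01 ± 0.90 over control (adjusted p = 0.000114) and by 6.54 ± 0.70 over nonpermissive cells (log2; adjusted p = 9.63e-05). At 24 h Cfap206 read 23.4, 31.3 and 8.62 CPM in DAPT libraries and 14.3, 9.86 and 11.7 CPM in DMSO libraries, and these overlapped.

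Cfap77, a protein inside the doublet microtubules, read 149, 96.4 and 33.2 CPM in permissive libraries, 0.558, 0 and 0.320 CPM in nonpermissive and 3.74 and 0 CPM in control libraries. It was higher in permissive than control cells by 5.51 ± 1.09 on the log2 scale (adjusted p = 0.0043) and stood at a ratio of 298 to nonpermissive cells, whose 3 counts give a 95% counting interval of 102 to 1450 (adjusted p = 0.000491). Per length Cfap77 was second only to Kif19a by mean in permissive cells, at 185 ± 169 TPM, against 201 ± 107 TPM (SD, n = 3 each). At 24 h it read 1.03 to 3.25 CPM in DAPT and 1.16 to 1.79 CPM in DMSO libraries, and was not called.

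Cfap52, another protein of the doublet lumen, had no count in any nonpermissive or control library and read 17.1, 37.8 and 6.87 CPM in permissive ones. Taking 3 counts per library as the limit that 0 counts allow, Cfap52 was at least 29.1-fold higher than in control (adjusted p = 0.00442) and at least 17.6-fold higher than in nonpermissive cells (adjusted p = 0.00226). At 24 h Cfap52 was present in both groups, at 14.3, 14.1 and 4.87 CPM with DAPT and 6.69, 6.71 and 7.48 CPM with DMSO, and overlapped. Against control libraries with 0 counts, Cfap65 was at least 23.4-fold higher (adjusted p = 0.0194), Cfap299 at least 10.1-fold higher (adjusted p = 0.0197) and Cfap58, a protein of the sperm flagellum, at least 5.06-fold higher (adjusted p = 0.0471). Without the first or the second control library the adjusted p was 0.0999 and 0.0812 for Cfap65, 0.123 and 0.107 for Cfap299, and 0.24 and 0.233 for Cfap58, which was also lost without the second permissive library (adjusted p = 0.0746) and with the replicate block (adjusted p = 0.0989). Against nonpermissive cells Cfap299 stood at a ratio of 28.3 with a counting interval of 7.55 to 238 (adjusted p = 0.0386) and Cfap58 was at least 3.07-fold higher (adjusted p = 0.033). Both calls were lost without any 1 nonpermissive library (adjusted p = 0.073 to 0.125 for Cfap299 and 0.0683 to 0.0927 for Cfap58), and that of Cfap58 also without the second permissive library (adjusted p = 0.0583).

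Cfap69, which the sperm flagellum needs in mice, read 67.3, 39.5 and 31.5 CPM in permissive, 4.75, 1.71 and 4.48 CPM in nonpermissive, and 2.81 and 3.14 CPM in control libraries. The permissive libraries lay above the others by 3.95 ± 0.73 over control (adjusted p = 0.00287) and 3.61 ± 0.61 over nonpermissive cells (log2; adjusted p = 0.00162). Against nonpermissive cells alone, Cfap61 and Cfap45 also passed. Cfap61 read 22.3, 26.1 and 12.1 CPM in permissive libraries and 0.279, 0.571 and 0 CPM in nonpermissive ones, a ratio of 88.6 with a counting interval of 24.2 to 736 (adjusted p = 0.00176), and 1.31 and 5.99 CPM in control libraries. Cfap45 had 87 counts in permissive and 3 in nonpermissive libraries, a ratio of 23.8 with an interval of 7.88 to 118 (adjusted p = 0.0443). With the replicate number as a block, Cfap45 and Cfap58 missed the threshold against nonpermissive cells (adjusted p = 0.0555 and 0.0609), and Cfap61 and Cfap44 passed it against control cells (adjusted p = 0.0335 and 0.0484, against 0.0994 and 0.18 without the block). Without any 1 nonpermissive library, or the first or second permissive one, Cfap45 was not called (adjusted p = 0.0743 to 0.121).

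At 24 h other CFAP genes passed, with smaller changes. Cfap70, linked to the outer dynein arm, rose by 1.17 ± 0.29 (adjusted p = 0.017), Cfap74, of the central apparatus, by 0.94 ± 0.23 (adjusted p = 0.0171), Cfap300 by 0.79 ± 0.14 (adjusted p = 0.00345), Cfap298 by 0.45 ± 0.12 (adjusted p = 0.0277) and Cfap36 by 0.39 ± 0.09 on the log2 scale (adjusted p = 0.0103). CFAP298 and CFAP300 act in the cytoplasmic assembly of dynein arms. Cfap53, another protein inside the doublets, fell to 2.09, 2.27 and 2.25 CPM in DAPT libraries, against 6.41, 4.81 and 5.26 CPM in DMSO libraries, with no overlap (log2 fold change -1.31 ± 0.24; adjusted p = 0.0041). Leaving out 1 library ended the call of Cfap298 in 4 of 6 cases (second and the third DMSO, first and second DAPT library; adjusted p = 0.0876 to 0.112), of Cfap70 without the first DMSO or second DAPT library (adjusted p = 0.0584 and 0.069), of Cfap74 without the second DMSO or first DAPT library (adjusted p = 0.0637 and 0.0845) and of Cfap36 without the first DAPT library (adjusted p = 0.0571). Cfap36 and Cfap20 were the most abundant CFAP genes per length at 24 h, at 135 and 109 TPM in DAPT and 108 and 117 TPM in DMSO cells, and Cfap20 passed no test. At the other end, Cfap73 had no count in any library, and 7 further CFAP genes never passed the filter.

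**Figure D3:**
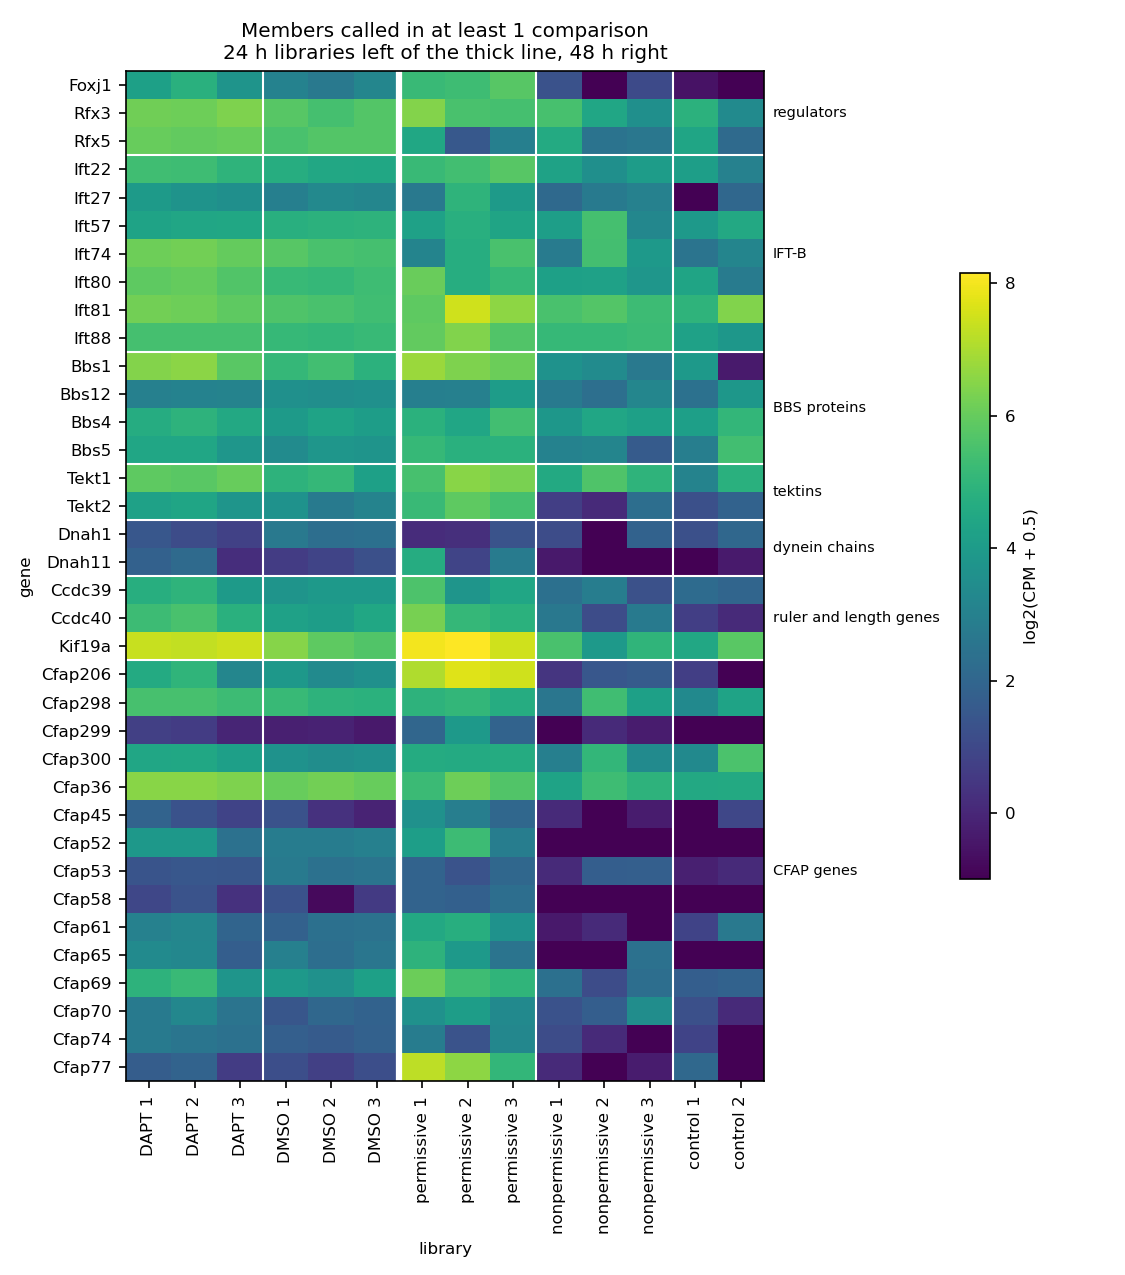
Level of the 36 members called in at least 1 comparison, as log2 of CPM plus 0.5 (colour scale), by gene (rows, in role order) and library (columns, 24 h left and 48 h right of the thick line). Several CFAP genes, Foxj1, Tekt2, Dnah11 and Ccdc40 are dark in nonpermissive and control columns and bright in permissive ones, whereas IFT genes differ less along a row.

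Across time, 7 members were called higher both with DAPT at 24 h and in permissive against control cells at 48 h: Foxj1, Ift88, Bbs1, Tekt2, Ccdc39, Ccdc40 and Kif19a. They are 33.3% of the 21 members higher at 24 h and 46.7% of the 15 higher in permissive cells. Over all genes, the 484 called higher in both were 27.8% of the 1742 higher at 24 h and 63.1% of the 767 higher in permissive cells, so the members were above all genes in the first share and below them in the second, with no test made. The 24 h and 48 h libraries share no sample. The other 14 called at 24 h were mostly IFT, BBS and widely expressed CFAP genes with small changes, and the other 8 called at 48 h were Dnah11 and CFAP genes with low levels in control cells. In all 17 members passed the filter at neither time.

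A list of 48 other motile axoneme and dynein assembly genes outside the naming rule was also chosen with earlier results of these data known. Many of these genes were higher in permissive cells and few at 24 h. At 24 h 4 of 43 testable ones were higher (9.30%, against 11.5% of all genes) and none lower (against 14.2%), among them Tubb4b, a ciliary beta-tubulin (log2 0.52 ± 0.09; adjusted p = 0.0038), Mns1 (0.94 ± 0.19; adjusted p = 0.00716) and the nexin-dynein regulator Drc3 (1.08 ± 0.23; adjusted p = 0.00971). In permissive against control cells 20 of 40 were higher (50.0%, against 5.72% of all genes) and none lower, among them Drc3 (6.49 ± 0.72; adjusted p = 0.000111) and the central apparatus gene Spag6l, whose 618 permissive and 3 control counts give a ratio of 177 with a counting interval of 60.3 to 860 (adjusted p = 0.000308). Against nonpermissive cells 25 of 40 were higher (62.5%, against 6.78%), and between nonpermissive and control cells none was called. Some genes of the list, among them Drc7, Ribc2 and Dnaaf1, read 0 CPM in every nonpermissive and control library. Such genes could enter the 48 h tests only through the permissive libraries and could hardly be called lower, which bears on these shares. Their median log2 difference was 0.51 at 24 h, 4.36 for permissive against control and 2.91 for permissive against nonpermissive cells.

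Of 23 other IFT, motor and BBSome genes, 9 were higher (39.1%) and 1 lower (4.35%) at 24 h, 3 were higher in permissive than control cells (13.0%) and 4 than nonpermissive cells (17.4%), to be read against the same shares of all genes. Dync2h1, the heavy chain of the retrograde IFT motor, rose by 0.63 ± 0.10 at 24 h (adjusted p = 0.00169) and by 2.25 ± 0.64 in permissive cells (log2; adjusted p = 0.0312), while Tctex1d2, a light chain of that motor, fell by 1.06 ± 0.14 at 24 h (adjusted p = 0.000618). Of 23 transition zone genes, which guard the ciliary base, 9 were higher (39.1%) and 1 lower (4.35%) at 24 h, and of 22 testable ones 4 were higher in permissive than control (18.2%) and 6 than nonpermissive cells (27.3%). Tmem107 led them at both times, at 1.67 ± 0.18 (adjusted p = 0.000253) and 5.29 ± 0.98 over control (log2; adjusted p = 0.00284). Of 20 basal body and ciliary membrane genes, 1 was higher (5.0%) and 3 lower (15%) at 24 h, when 11.5% and 14.2% of all genes were, and at 48 h Cep41 was lower in permissive than control cells, with a log2 difference of -2.62 ± 0.46 (adjusted p = 0.00189). In nonpermissive against control cells no gene of these lists was called.

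Genes linked to cilium formation in multiciliated cells, plotted as multiciliated cell regulators though not all are regulators, were nearly absent. The 9 genes of that list summed to 2.12 to 3.93 CPM in DAPT, 0.891 to 2.36 CPM in DMSO, 0.404 to 3.35 CPM in permissive, 3.35 to 8.00 CPM in nonpermissive and 1.87 to 2.57 CPM in control libraries. Gmnc, which acts at the top of that programme, and Sntn were at 0 in all 14 libraries, and Mcidas did not exceed 0.748 CPM. Hair cell markers were higher in the same comparisons: 13 of 15 were higher at 24 h, 15 of 15 in permissive than control or nonpermissive cells, and 2 of 15 in nonpermissive than control cells. Supporting cell markers moved the other way, with 14 of 15 lower at 24 h, 12 of 15 lower in permissive than control cells, 9 of 15 lower than in nonpermissive cells, and Hes5, a Notch target, lower in nonpermissive than control cells. Of all genes, 11.5% were higher and 14.2% lower at 24 h, and 5.72% and 7.28% in permissive against control cells. For permissive against nonpermissive cells the shares were 6.78% and 6.35%, and for nonpermissive against control cells 0.0671% and 0.127%. The hair cell list holds Atoh1, on whose reporter the permissive sort rests. The supporting cell list holds Lfng, on which the sorts rest, and Hes5. The part of these markers in the ciliary results was not tested.

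Markers of other cochlear cell types were present, and mesenchyme markers summed higher than hair cell markers in every nonpermissive and control library. Mesenchyme markers summed to 430 to 555 CPM in DAPT and 425 to 476 CPM in DMSO libraries. At 48 h they summed to 229 to 678 CPM in permissive and 1390 to 3410 CPM in nonpermissive libraries. The control libraries stood far apart, at 611 CPM in the first and 2780 CPM in the second. Schwann and satellite glia markers summed to 227 to 290 CPM in DAPT and 416 to 431 CPM in DMSO libraries, and to 113 to 286, 537 to 777 and 525 to 975 CPM in the permissive, nonpermissive and control ones. Neuron markers summed to 282 to 712 CPM in DAPT, 292 to 325 CPM in DMSO, 152 to 221 CPM in permissive, 41.9 to 81.7 CPM in nonpermissive and 79.3 to 135 CPM in control libraries; Snap25, which hair cells also express, was among those higher in permissive cells. Endothelial markers stayed at or below 3.77 CPM at 24 h and summed to 43.7 to 135 CPM in permissive, 102 to 257 CPM in nonpermissive and 13.3 to 46.2 CPM in control libraries, and blood and macrophage markers to 9.78 to 56.1 CPM at 24 h and 21.1 to 175 CPM at 48 h. Their part in the results was not tested either.

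**Figure D4:**
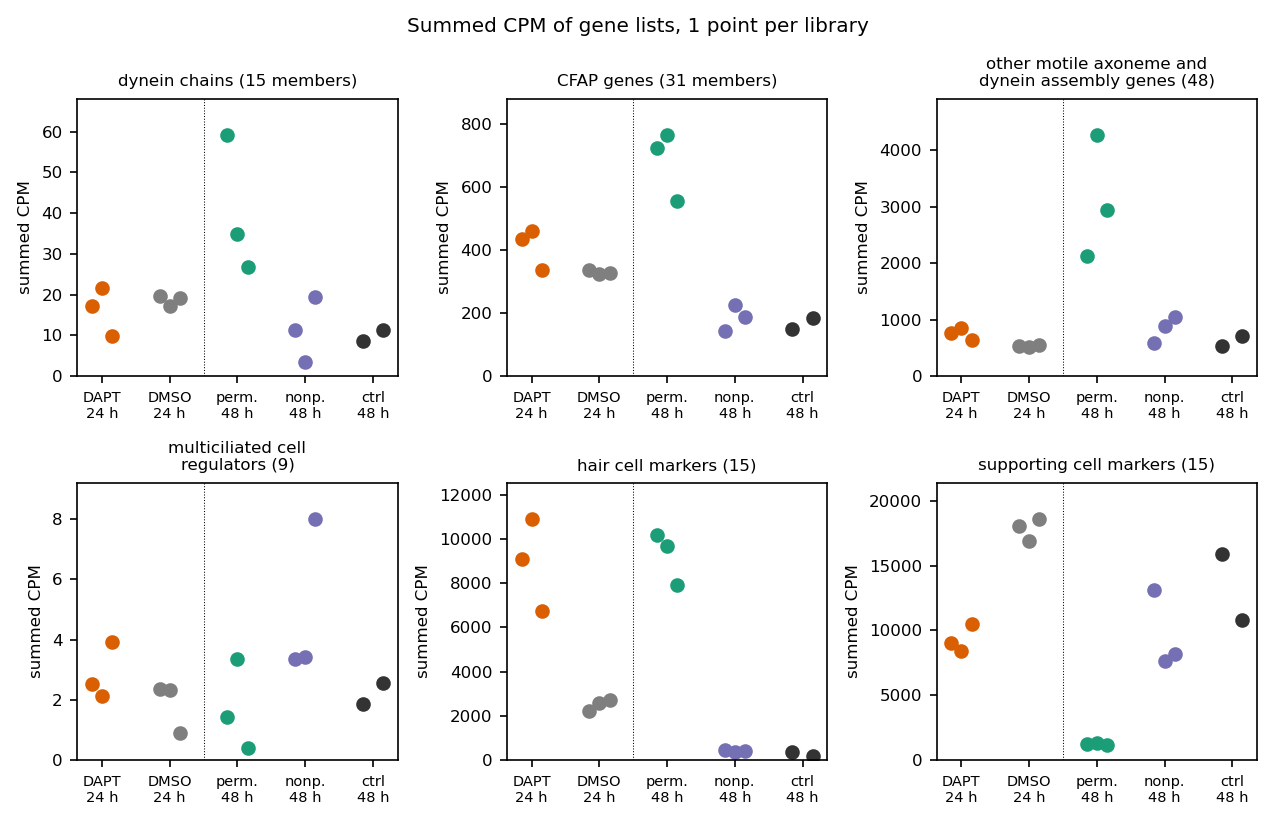
Summed CPM (y axis, linear, from 0) of 2 member roles and 4 gene lists in each library (points), by group (x axis); the dotted line parts 24 h from 48 h. The CFAP and other axoneme sums are highest in permissive libraries, as is the hair cell marker sum among 48 h libraries, whereas the multiciliated cell regulators stay at or below 8.00 CPM in every library. Much of the other axoneme sum is Tubb4b, at 1020, 2860 and 1780 CPM of 2130, 4270 and 2950 CPM in permissive libraries. In control libraries Tubb4b makes 285 and 492 CPM of 525 and 716 CPM.

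Most member promoters held an ATAC peak in all 48 h groups. An ATAC peak lay within 500 bases of a start in both libraries for 56 of 72 members in permissive (77.8%), 58 in nonpermissive (80.6%) and 59 in control cells (81.9%), against 57.3%, 60.8% and 60.0% of all protein-coding genes. No member had a promoter ATAC peak in both permissive libraries and in neither control library, or the reverse. Such differences were rare over all genes too, at 0.606% and 0.406%. H3K27ac, a mark of active promoters and enhancers, differed more. A peak lay at the promoters of 43 members in both permissive libraries (59.7%), of 22 in both nonpermissive libraries (30.6%) and of 21 in both control libraries (29.2%), against 35.8%, 37.2% and 29.4% of all genes.

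An H3K27ac peak in both permissive and in neither control library was found at 11 members (15.3%, against 4.05% of all genes): Bbs7, Ccdc40, Cfap206, Cfap43, Cfap44, Cfap46, Cfap58, Cfap69, Cfap74, Dnah11 and Dnah7a. Of these, Ccdc40, Cfap206, Cfap58, Cfap69 and Dnah11 were also higher in RNA. No member showed the reverse at this threshold (0.812% of all genes). The peak lists were the authors' own per library and differed in length, at 114572 and 72430 H3K27ac peaks in permissive, 93900 and 46284 in nonpermissive and 57839 and 55391 in control libraries, with the depth unknown, so no test was made. Both nonpermissive H3K27ac lists carry replicate number 2 in their peak names and were assigned as recorded with each sample. At a deposited -log10 q of at least 5, the members with a peak in both libraries fell to 10 in permissive (13.9%), 10 in nonpermissive (13.9%) and 5 in control cells (6.94%), against 6.81%, 15.9% and 7.12% of all genes. At that threshold 2 members (Cfap70 and Ift52; 2.78%, against 1.75% of all genes) had one in both permissive and neither control library, and 1 (Dnah6) showed the reverse (0.109% of all genes).

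**Figure D5:**
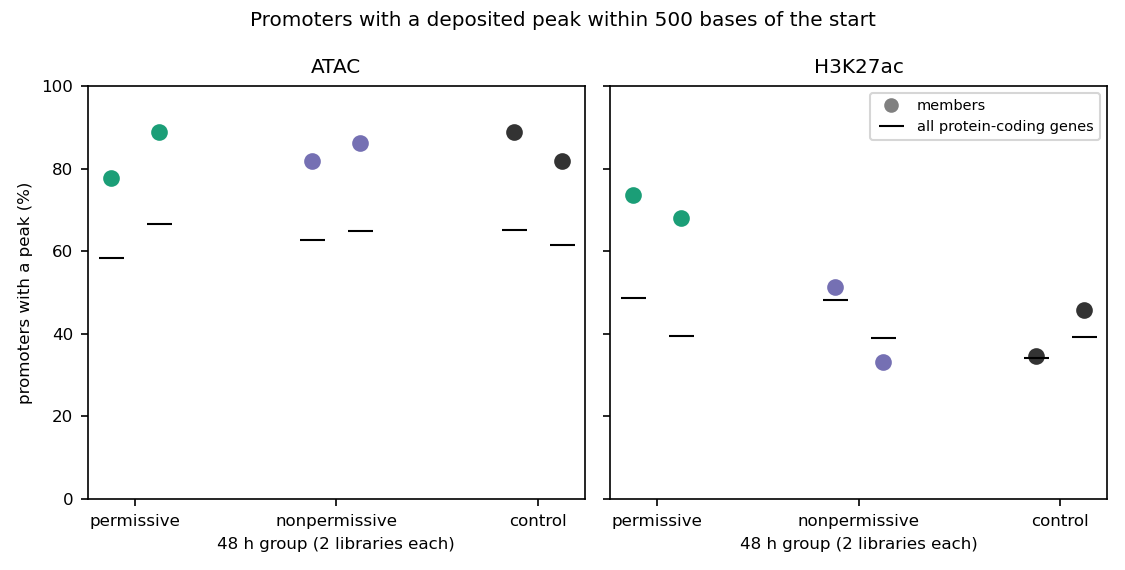
Percent of promoters with a deposited peak within 500 bases of the start (y axis, from 0 to 100) for ATAC and H3K27ac, by 48 h group (x axis, 2 libraries each); circles are the 72 members and dashes all 17491 protein-coding genes. ATAC circles lie above the dashes in every library, and H3K27ac circles lie clearly above them in the permissive libraries (73.6% and 68.1%, against 48.6% and 39.5%).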

How the data were processed

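RNA was measured in 14 of the 26 samples, as gene tables of expected counts and TPM that the authors deposited, per the file headers. The submitters' processing notes name STAR, RSEM, UMI-tools, Bowtie2, MACS2, DESeq2 and build mm10. No source used here gives their versions or settings. Expected counts deposited by the authors were rounded to whole numbers and identifiers matched to symbols (at most 0.0676% of counts had none). Genes were filtered with filterByExpr, scaled by TMM and tested with the quasi-likelihood test of edgeR 4.0.16 in R 4.3.3, separately at 24 h and at 48 h, where the 3 groups shared 1 estimate of spread; p-values were Benjamini-Hochberg adjusted over all genes and called under 0.05. The procedure was tested on simulated data. CPM are counts over the TMM-scaled library size; TPM as deposited by the authors served only to compare genes.

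Peak lists deposited by the authors per library gave the fold enrichment ratio and the −log10 p and q of each peak, per the file headers; peaks were matched to RefSeq starts with Python 3.11.15.

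Members and lists were chosen with earlier results of these data known. The genes named are those called, Foxj1, the 3 spacing and length genes, Rfx1, Rfx2, Rfx3 and Rfx7, and the 2 members of each role with the highest TPM; of each further list, up to 4 called genes. Others named (Tekt3, Tekt4, Dnah5, Dnah6, Dnah14, Cfap44, Gmnc, Sntn, Mcidas, Snap25, Hes5) were chosen after their values were seen. Alternatives were DESeq2 1.42.0, its size factors, no filter, a replicate block, leaving out each library, the compared libraries alone, a stricter peak threshold and a wider promoter window. Same-numbered permissive and nonpermissive libraries correlated in their deviations from group means at r of 0.531, 0.136 and 0.133. Nonpermissive library 3 and permissive library 2 reached 0.154, so only the first pair stood out. The labels do not say what a number shares. The main tests were not paired, and the replicate block was run only as an alternative. Counting intervals are at 95% and, like the limit of 3 counts for a 0, cover counting error only. Of the tables' sample columns 0 were left unused.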

Additional observations from a re-analysis of the deposited data

Results flagged for a closer look

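Cfap53, a protein inside the axonemal doublets, had log2 fold changes of opposite sign at the 2 times, of which only that at 24 h passed. Its log2 fold change was -1.31 ± 0.24 for DAPT against DMSO at 24 h, lower in all 3 DAPT libraries (edgeR adjusted p = 0.0041). In permissive against control cells at 48 h it was 2.59 ± 1.28, higher in all 3 permissive libraries, which did not pass (adjusted p = 0.222). That value rests on 31 permissive and 4 control counts. Nonpermissive against control cells gave 2.06 ± 1.28 and permissive against nonpermissive cells 0.53 ± 1.01, neither of which passed. The difference between the times was not tested, and the library kits differed.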

How the results depend on the processing

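Of the calls, 13 of 25 at 24 h, 6 of 15 in permissive against control and 9 of 16 in permissive against nonpermissive cells held under every alternative run. Leaving out 1 library gave 12 to 33 members higher and 2 to 4 lower at 24 h, 7 to 17 higher in permissive against control and 10 to 17 against nonpermissive cells (10 without the second or the third nonpermissive library). Permissive against control gave 25 higher by DESeq2 and 26 with no filter; nonpermissive against control gave 1 with no filter (Cfap126). With the replicate number as a block, 19 members were higher and 3 lower at 24 h, where same-numbered libraries did not deviate together (r of -0.017, -0.065 and -0.063), 19 were higher in permissive against control and 15 against nonpermissive cells, and control cells share only 2 numbers with either group. The cause was not tested. At a −log10 q of at least 5, H3K27ac promoter peaks in both libraries fell to 10, 10 and 5 members in permissive, nonpermissive and control cells. The shares of all genes were 6.81%, 15.9% and 7.12%. Counted over all deposited peaks in 1 library alone, a setting chosen after seeing the data, members with a peak numbered 49 to 53 in permissive, 24 to 37 in nonpermissive and 25 to 33 in control cells. These were 68.1% to 73.6%, 33.3% to 51.4% and 34.7% to 45.8% of members. Of all genes they were 39.5% to 48.6%, 39.0% to 48.3% and 34.1% to 39.3%.

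Uncalled genes changed sign, mostly when 1 library was left out (log2 values). In permissive against control cells Rfx2 ranged over -0.34 to 1.49 (below 0 without the first permissive library) and Rfx7 over -0.5 to 1.43 (-0.5 without the second control, -0.31 without the first permissive library). In nonpermissive against control cells Ccdc39 ranged over -0.17 to 0.6 and Rfx1 over -0.24 to 0.05 (both reversed without the second nonpermissive library), Rfx1 was 0.01 with the block, Kif19a ranged over -0.85 to 0.43, Rfx3 over -0.28 to 1.36 and Rfx7 over -0.44 to 1.45. Without the second control library Kif19a was 0.43, Rfx3 -0.22 and Rfx7 -0.44, and without the first nonpermissive library Rfx3 was -0.28 and Rfx7 -0.24. Rfx7 in permissive against nonpermissive cells ranged over -0.53 to 0.46, at 0.46 without the first nonpermissive, 0.27 without the second permissive and 0.06 without the third permissive library. With 2 control libraries and lower depth at 48 h, members near 0 counts carry wide errors.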
